A study of Homo sapiens with 4 samples.

Results

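MTF-1 occupancy was described at 8 loci that are known in the MDA-MB-231 breast cancer cell line as mutated, deleted or growth-driving: BRAF, NF1, NF2, MYC, CCND1, CDKN2A, CDKN2B and MTAP. They are 8 of 19970 protein-coding genes of GENCODE release 44 on hg38, and they were chosen by name, by a rule that uses no MTF-1 value, at a time when earlier results of these data were known. Every peak that overlapped a member gene or the 50 kb on either side of it was taken, which gave 36 of 69299 peaks in control cells and 37 of 60130 peaks in cadmium cells. Of the 8 members, 5 held peaks (BRAF, NF1, NF2, MYC and CCND1), and 3 neighbours on chromosome 9 (CDKN2A, CDKN2B and MTAP) held none in either list.

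CUT&RUN, in which a nuclease guided by an antibody releases the DNA around a bound protein, was carried out with an antibody to MTF-1 in MDA-MB-231 cells. Control cells were kept without added metal, and cadmium cells were passaged repeatedly in medium with cadmium sulfate and then held at 10 µM, so the cadmium group is a population selected for growth in the metal and not a short exposure. Each condition had 2 libraries, which the authors merged before calling peaks, and each condition is therefore 1 list of positions with no count, height or score. No replicate error exists for any value here, no difference between the lists was tested, and the lists do not show how deeply each library was sequenced.

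MTF-1, a DNA-binding protein with zinc fingers, senses zinc, binds metal response elements (MREs) and drives metallothionein and zinc transporter genes. MDA-MB-231 is a triple-negative line whose growth is driven in part by mutant BRAF, with mutations in the tumour suppressors NF1 and NF2 and a homozygous deletion at 9p21. That deletion is known to take out CDKN2A, which encodes p16INK4a and p14ARF, CDKN2B, which encodes p15INK4b, and often MTAP, an enzyme of methionine salvage. The deposited lists hold no measure of DNA copy number, so the deletion is background and was not measured here.

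The promoters of the members are shown first because the presence or absence of a peak at a start site is what divides the 8 loci. Each line gives 100 bases immediately upstream of a RefSeq start (GRCh38.p14, the same assembly as hg38), written 5′ to 3′ on the strand of the gene. RefSeq promoters were matched for 6 of the 8 members, and those that overlapped an annotated untranslated region were not printed. The NF2 and BRAF sequences lay within a peak of both lists, and the CDKN2A, CDKN2B and MTAP sequences lay in none.
NF2 promoter, chr22:29603456-29603555, plus strand: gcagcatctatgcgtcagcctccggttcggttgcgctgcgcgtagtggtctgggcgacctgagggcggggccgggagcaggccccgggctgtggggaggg
BRAF promoter, chr7:140924269-140924368, minus strand: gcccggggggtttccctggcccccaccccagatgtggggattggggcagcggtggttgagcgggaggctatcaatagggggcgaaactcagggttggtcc
CDKN2A promoter, chr9:21995325-21995424, minus strand: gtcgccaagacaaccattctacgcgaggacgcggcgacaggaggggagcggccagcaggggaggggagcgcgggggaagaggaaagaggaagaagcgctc
CDKN2B promoter, chr9:22009306-22009405, minus strand: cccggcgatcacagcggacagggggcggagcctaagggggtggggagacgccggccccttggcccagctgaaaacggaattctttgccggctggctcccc
MTAP promoter, chr9:21802536-21802635, plus strand: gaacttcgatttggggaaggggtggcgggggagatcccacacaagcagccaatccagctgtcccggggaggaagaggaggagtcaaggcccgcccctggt

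These 5 sequences have GC contents of 73.0% (NF2), 67.0% (BRAF), 67.0% (CDKN2A), 70.0% (CDKN2B) and 64.0% (MTAP). They held no copy, on either strand, of the AP-1 string (TGACTCA or TGAGTCA), the forkhead consensus RTAAAYA or the MRE core (TGCACNC or TGCGCNC). Among 21548 RefSeq protein-coding promoters of the same length, 1.62% held the AP-1 string, 3.66% the forkhead consensus and 14.4% the MRE core, so the lack of a match was the usual state of a promoter. Over 250 bases upstream of the start, CDKN2A had 66.8% GC at both of its RefSeq starts, with observed-to-expected CpG ratios of 0.736 and 1.08, and CDKN2B had 66.4% GC with a ratio of 0.654. NF1 had 67.2% with 0.911, and NF2 had 62.4% with 0.664 and 71.6% with 0.981 at its 2 starts. A promoter was called CpG-rich at a GC content of at least 55% and a CpG ratio of at least 0.6, and 11735 of 21548 promoters (54.5%) were. By this rule NF1, NF2, CDKN2A and CDKN2B had CpG-rich promoters. BRAF at its internal RefSeq start (64.8%, ratio 0.540) and MTAP (50%, ratio 0.721) fell short of it.

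A peak of both lists stood within 1 kb of 87.3% of CpG-rich promoters and of 39.5% of the others. NF1 and NF2 were with the majority of CpG-rich promoters. CDKN2A and CDKN2B were in the minority without such a peak. BRAF had a peak of both lists although the promoter at its internal RefSeq start was below the CpG limit, and MTAP had none. The bases upstream of the canonical BRAF start were not scored.

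The second set of sequences comes from some of the peaks of 1 list only, since these are the sites where the lists differ at the members. A control peak was called lost when no cadmium peak shared a base with it, and a cadmium peak was called gained when no control peak did. Each line gives 100 bases of hg38, plus strand, centred on an AP-1 string where the peak held one, otherwise on a forkhead consensus and otherwise on an MRE core. Capitals mark that match, read on either strand.
BRAF intron, lost, chr7:140876841-140876940, plus strand: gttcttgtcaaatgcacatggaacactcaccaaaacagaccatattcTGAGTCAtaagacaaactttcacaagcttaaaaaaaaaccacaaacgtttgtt
BRAF intron, lost, chr7:140898803-140898902, plus strand: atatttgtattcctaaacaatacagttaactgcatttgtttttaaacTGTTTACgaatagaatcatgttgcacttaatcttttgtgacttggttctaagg
NF1 alternative start, lost, chr17:31340054-31340153, plus strand: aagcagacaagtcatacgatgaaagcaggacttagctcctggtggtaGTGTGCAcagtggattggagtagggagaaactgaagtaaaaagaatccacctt
CABP7 intron, gained, chr22:29722401-29722500, plus strand: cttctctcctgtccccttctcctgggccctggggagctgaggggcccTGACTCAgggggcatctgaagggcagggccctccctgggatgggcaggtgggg
CABP7 intron, gained, chr22:29726955-29727054, plus strand: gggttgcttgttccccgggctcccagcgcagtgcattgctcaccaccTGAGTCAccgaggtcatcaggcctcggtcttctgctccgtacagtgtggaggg
CCND1 upstream, gained, chr11:69594107-69594206, plus strand: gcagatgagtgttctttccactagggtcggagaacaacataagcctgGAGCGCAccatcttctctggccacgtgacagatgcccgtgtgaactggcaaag
CCND1 upstream, gained, chr11:69629714-69629813, plus strand: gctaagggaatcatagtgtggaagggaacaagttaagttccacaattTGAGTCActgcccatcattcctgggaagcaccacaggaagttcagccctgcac

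Of these 7 sites, 4 were shown for an AP-1 string, 1 for a forkhead consensus and 2 for an MRE core. The lost peaks not printed were 1 at NF1 with an AP-1 string, 1 at NF2 with no match and 1 at CCND1 with an MRE core. The gained peaks not printed were 1 at NF2 with a forkhead consensus and 1 at CCND1 with an AP-1 string. The printed lines therefore do not give the balance of motifs between lost and gained peaks. Read over 500 bp around the peak centre, the AP-1 string was in 1 of the 6 lost peaks and 2 of the 6 gained peaks at the members, against 24.5% of all lost and 32.6% of all gained peaks. The forkhead consensus was in 3 of the 6 lost peaks and in 0 of the 6 gained peaks, against 41.1% and 25.5% of all. The MRE core was in 1 of the 6 lost and 3 of the 6 gained peaks, against 28.8% and 30.6%. A printed match can lie outside the central 500 bp of its peak, and with 6 peaks a class these counts describe the sites and no more. A match in the letters does not show that a factor was bound.

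Peaks stood at the start of BRAF, NF1, NF2, MYC and CCND1 in both lists. That was 5 of 8 members, against 70.2% of all protein-coding genes with a peak of both lists within 1 kb of an annotated start. CDKN2A, CDKN2B and MTAP had no peak of either list anywhere within 50 kb, as did 5.30% of protein-coding genes and 53 of 777 (6.82%) of those on chromosome 9. The 53 include CDKN2A, CDKN2B and MTAP and the rest of the 24 genes of the peak-free stretch described below. The chromosome 9 share is therefore not separate from this locus. The 3 genes lie side by side, their windows overlap, and they count as 1 locus and not as 3 observations.

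Of the 36 control peaks at the members, 6 (16.7%) were lost, against 27.9% of all control peaks. Of the 37 cadmium peaks, 6 (16.2%) were gained, against 15.1% of all cadmium peaks. Lost peaks were 399 to 2599 bp wide with a median of 699 bp, and gained peaks were 399 to 1399 bp with a median of 899 bp. Both were narrower at the median than the shared peaks, which had medians of 1799 bp in control and 1999 bp in cadmium. At least 1 lost peak fell in the windows of 4 of 8 members, against 62.5% of all protein-coding gene windows, and at least 1 gained peak in those of 2 of 8, against 45.5%. Both counts take the empty chromosome 9 locus as 3 of the 8 members, which lowers the share. Among the 5 members with peaks, 4 had a lost peak and 2 had a gained peak. No gained peak lay inside a member gene. Of the lost peaks, 4 lay inside a member gene, 1 upstream and 1 downstream.

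**Figure D1:**
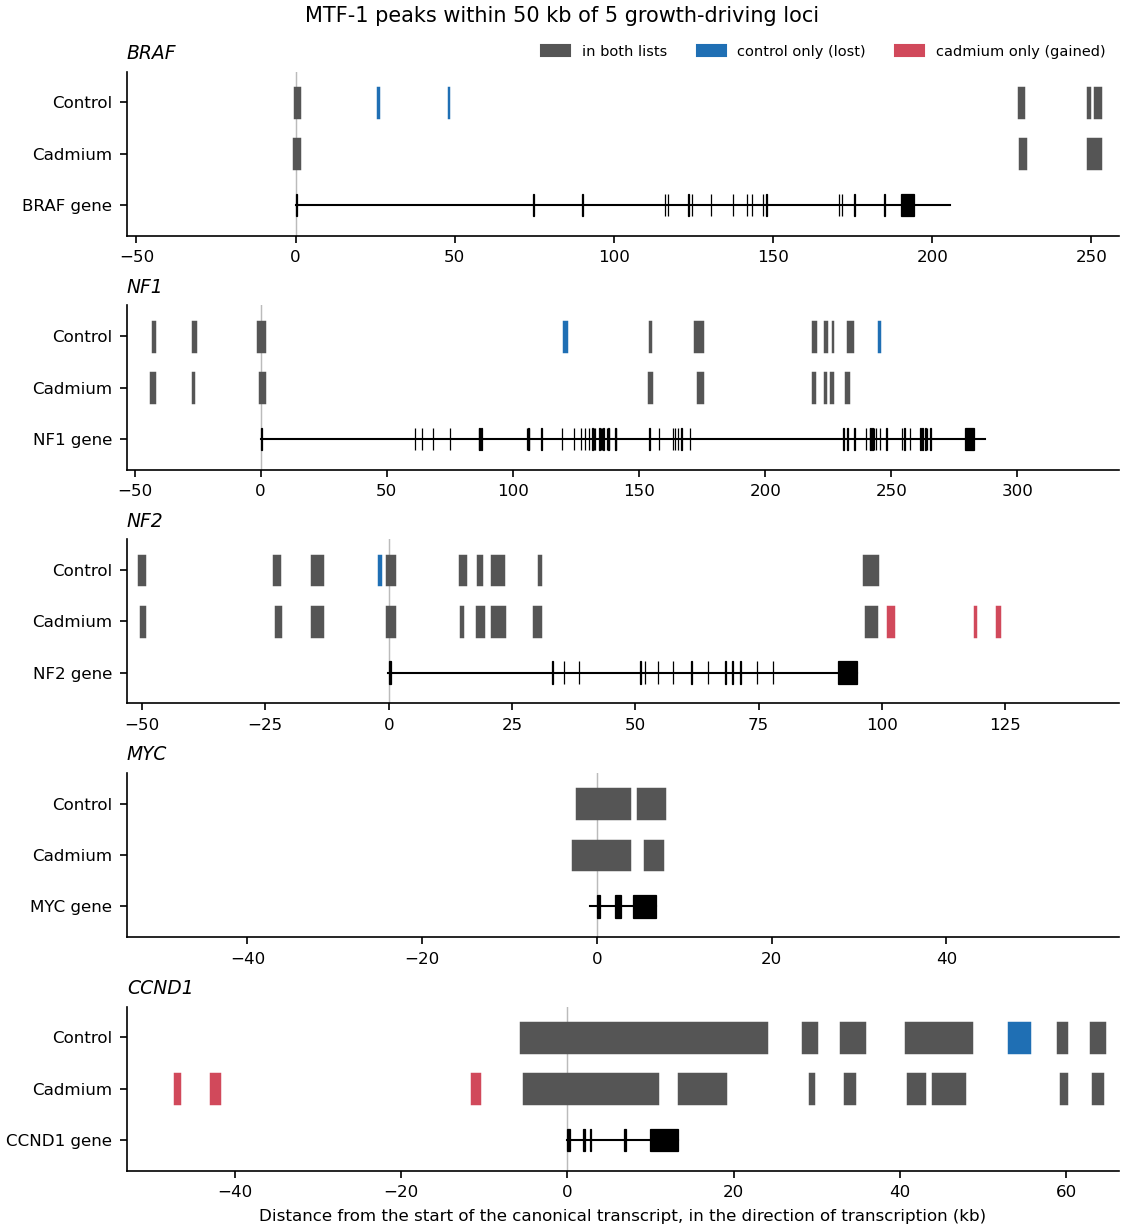
MTF-1 peaks in the windows of BRAF, NF1, NF2, MYC and CCND1, by distance in kb from the start of the canonical transcript. Each box is 1 peak of the control list (upper row) or the cadmium list (middle row), coloured by whether it was in both lists, lost or gained, and the gene model (thick boxes are exons) is drawn beneath. Every one of the 5 starts carries a peak in both rows, the 3 gained peaks at CCND1 are upstream of the gene and the 3 at NF2 are downstream of it.

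BRAF (ENSG00000157764, chr7:140719327-140924929, minus strand) encodes the serine/threonine kinase that passes the RAS signal to MEK. Its window of 305603 bp held 6 control and 3 cadmium peaks, which is 1.96 and 0.982 peaks per 100 kb, against medians of 4.14 and 3.73 over all protein-coding gene windows. The peak over its first exon measured 1799 bp in control cells (chr7:140923601-140925399) and 1999 bp in cadmium cells (chr7:140923601-140925599). The rest of the gene body held no cadmium peak. Both lost peaks were in BRAF introns and were 399 bp wide. They lay 25929 bp (chr7:140898801-140899199) and 48129 bp (chr7:140876601-140876999) downstream of the start. The remaining peaks of the window were beyond the 3′ end, at or near the starts of neighbouring genes. At ADCK2 and DENND2A, 1 cadmium peak of 4199 bp (chr7:140672001-140676199) overlapped 2 control peaks, all of one of 2199 bp and 799 of the 999 bases of the other, and at NDUFB2, a subunit gene of respiratory complex I, peaks of 1999 bp and 2199 bp overlapped. All 3 shared sites were wider in cadmium, counted as the bases covered by the peaks of each list. Covered bases were 7.794 kb in control and 8.397 kb in cadmium, a ratio of 1.08, although cadmium had fewer peaks.

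NF1 (ENSG00000196712, chr17:31094927-31382116, plus strand) encodes neurofibromin, a GTPase-activating protein that switches RAS off. It had 11 control peaks and 9 cadmium peaks in 387190 bp, with 2 lost and 0 gained. The start peak was 2999 bp in control (chr17:31093601-31096599) and 2199 bp in cadmium (chr17:31094401-31096599), with a common right edge. The lost peaks were inside the gene. The first measured 1399 bp (chr17:31215001-31216399) and was intronic, 120723 bp downstream of the start, and the second measured 799 bp (chr17:31339801-31340599), overlapped coding sequence and had its centre 80 bp from the start of an alternative NF1 transcript. The widest control peak, 3399 bp in an intron (chr17:31266801-31270199), was 2199 bp in cadmium. NF1 holds other genes within its introns on the opposite strand, and peaks of both lists stood at the starts of EVI2B (1799 bp and 1199 bp) and EVI2A (599 bp and 1199 bp). Alternative NF1 starts lay within 1 kb of 3 more control peaks, at chr17:31248801-31249599, chr17:31318201-31319399 and chr17:31327401-31329599, and the first and second of these also had a cadmium peak within 1 kb of such a start (chr17:31248601-31249999 and chr17:31318201-31319199). The third had a cadmium peak that stopped short of it (chr17:31326801-31328199). Upstream of the gene, 2 shared sites lay in introns or exons of noncoding genes, and at the farther one the cadmium peak (chr17:31051001-31053199, 2199 bp) was as wide as any in the window for that list. Of 9 shared sites, 6 were wider in control and 3 in cadmium, and covered bases fell from 17.989 to 13.791 kb (ratio 0.767). NF1 has partial pseudogene copies on other chromosomes, and how reads that match several places were handled is not given in the sources used here.

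NF2 (ENSG00000186575, chr22:29603556-29698598, plus strand) encodes merlin, the membrane-linked protein that acts upstream of the Hippo kinases. It had 10 control and 12 cadmium peaks in 195043 bp, or 5.13 and 6.15 per 100 kb. The start peak was the same in both lists to the base, 1999 bp at chr22:29603001-29604999, as was a 2599-bp intergenic peak 14533 bp upstream (chr22:29587801-29590399). The lost peak was the next one upstream of the start, 599 bp wide and 1933 bp away (chr22:29601401-29601999). The 3 gained peaks were all beyond the 3′ end: 1399 bp over a noncoding exon of CABP7-DT (chr22:29704601-29705999), and 399 bp and 799 bp in an intron of CABP7 (chr22:29722201-29722599 and chr22:29726801-29727599). CABP7 encodes a calcium-binding protein, and the gained peaks are as much in its neighbourhood as in that of NF2. The first intron of the canonical NF2 transcript held 4 shared sites, of which 1 was wider in control (1599 against 599 bp) and 3 were wider in cadmium (999 against 1599, 2599 against 2799 and 599 against 1599 bp). Upstream, shared peaks stood at the starts of THOC5 (1399 and 999 bp) and NIPSNAP1 (1399 and 1199 bp). The widest control peak of the window, 2999 bp, lay just beyond the 3′ end (chr22:29699801-29702799, 2399 bp in cadmium), and the widest cadmium peak, 2799 bp, was in the first intron (chr22:29624401-29627199). Covered bases were 16.035 kb in control and 18.033 kb in cadmium (ratio 1.12), the highest ratio of the 5 members with peaks.

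MYC (ENSG00000136997) encodes the growth-promoting transcription factor that pairs with MAX. Its window of 107518 bp held just 2 peaks in each list, all shared, and both lay on the gene itself. The peak over the start was 6199 bp in control (chr8:127733801-127739999) and 6599 bp in cadmium (chr8:127733401-127739999). The peak over the end of the gene was 3199 bp in control (chr8:127740801-127743999) and 2199 bp in cadmium (chr8:127741601-127743799). Peaks at least as wide as the start peak made up 3.05% of the control list and 1.51% of the cadmium list. Covered bases were 9.398 and 8.798 kb (ratio 0.936).

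CCND1 (ENSG00000110092, chr11:69641156-69654474, plus strand) encodes cyclin D1, which activates CDK4 and CDK6, the kinases held in check by the p16INK4a product of CDKN2A. It had the most covered window of the 8, with 46.868 kb or 41.4% of the window in control peaks and 34.264 kb or 30.2% in cadmium peaks, against medians of 6.86% and 4.95% over all protein-coding genes. A single control peak of 29799 bp (chr11:69635401-69665199) ran from upstream of the start past the end of the gene into LTO1, the next gene, and was number 13 of 69299 by width. In cadmium the same stretch held a peak of 16199 bp (chr11:69635801-69651999), number 58 of 60130 by width, and one of 5799 bp (chr11:69654401-69660199), with a space between them at the 3′ end of CCND1. A second control peak of 7999 bp (chr11:69681801-69689799) was likewise in 2 pieces in cadmium, of 2199 and 3999 bp. The other 4 shared sites were in LTO1 (1799 against 599 bp and, at its start, 2999 against 1399 bp) and at FGF19 (1199 against 799 bp and 1799 against 1399 bp). All 6 shared sites at CCND1 were wider in control. The lost peak, 2599 bp (chr11:69694201-69696799), lay between LTO1 and FGF19, a fibroblast growth factor gene.

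The 3 gained peaks at CCND1 were all upstream and intergenic, in a 50-kb stretch with no control peak apart from the left part of the broad one. They measured 799 bp at 46956 bp from the start (chr11:69593801-69594599), 1199 bp at 42356 bp (chr11:69598201-69599399) and 999 bp at 11056 bp (chr11:69629601-69630599). The start of CCND1 was the closest annotated start to each. The window therefore had more cadmium peaks (11) than control peaks (7) while having fewer covered bases, with a ratio of 0.731.

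Over all 8 members, control peaks covered 98.084 kb and cadmium peaks 83.283 kb, a ratio of 0.849. The whole lists covered 130 Mb and 90.9 Mb (ratio 0.697), and the median ratio over 18633 protein-coding gene windows with control peaks was 0.748. CCND1 supplied 47.8% of the covered control bases and 41.1% of the covered cadmium bases. Without it the members had 51.216 and 49.019 kb, a ratio of 0.957, so most of the difference in covered bases came from that locus. Shared sites, in which overlapping peaks of the lists were joined, numbered 29 at the members, and 17 (58.6%) were wider in control, 10 (34.5%) wider in cadmium and 2 (6.90%) equal. A site was called wider in the list whose peaks covered more of its bases, with separate peaks added together. Among all 48618 shared sites these shares were 58.0%, 23.7% and 18.3%. The median ratio of bases covered at a site, cadmium to control, was 0.800 at the members and 0.833 over all. The median peak width was 999 bp in the whole cadmium list and 1399 bp in the whole control list. NF1, MYC and CCND1 had covered-base ratios below 1, and NF2 and BRAF had ratios above 1. The part of sequencing depth in these widths was not tested.

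**Figure D2:**
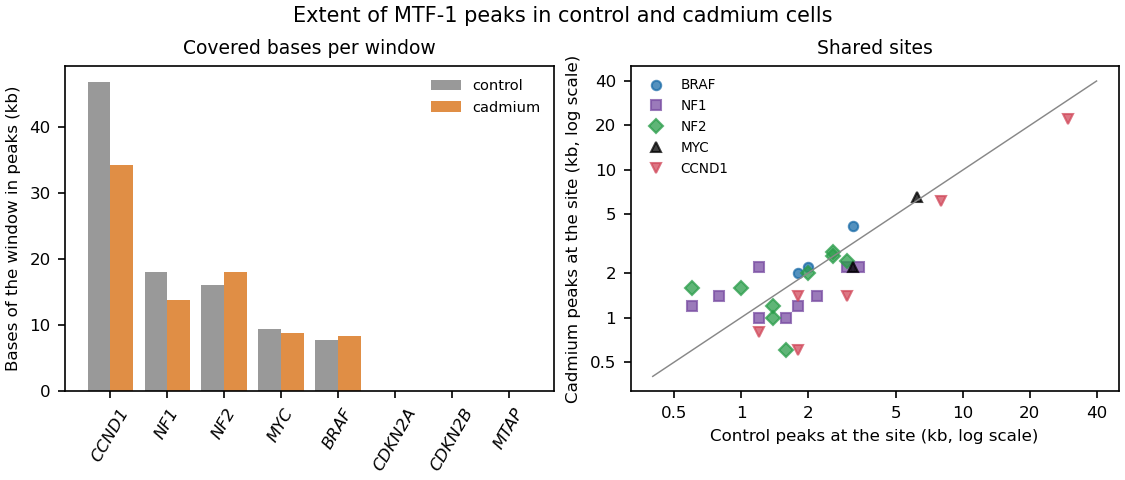
Left, bases of each member window covered by peaks, in kb, for the control and cadmium lists (1 merged list per condition, so no error bars). Right, the bases covered by control peaks and by cadmium peaks at each of 29 shared sites, in kb on log scales, with the line of equality. All 6 CCND1 sites lie below the line and all 3 BRAF sites above it.

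The stretch without peaks around CDKN2A (ENSG00000147889, chr9:21967752-21995301, minus strand), CDKN2B (ENSG00000147883, chr9:22002903-22009305, minus strand) and MTAP (ENSG00000099810, chr9:21802636-21937651, plus strand) was much longer than the windows. No peak of either list lay between 20756200 and 25677200 on chromosome 9, which is 4921001 bp (4.92 Mb) of reference with 0 unknown bases. The left edge was 1.22 Mb and the right edge 3.70 Mb from the start of the canonical CDKN2A transcript. On the left the last control peak (chr9:20754001-20756199) was 2199 bp wide, was lost in cadmium and lay in FOCAD, a gene that runs across the edge, and the last cadmium peak, 999 bp (chr9:20732001-20732999), was further out in the same gene, so that the cadmium list alone had a stretch of 4.94 Mb. FOCAD had 5 control and 3 cadmium peaks, all in its first part, and 240 kb of the gene lay in the stretch with none. On the right, both lists resumed at the same base, with peaks of 1999 bp in control (chr9:25677201-25679199) and 1599 bp in cadmium (chr9:25677201-25678799) at the start of TUSC1.

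The flanks differed in density. The 1 Mb to the left held 21 control and 13 cadmium peaks, with 30.6 and 15.6 kb covered and 3 protein-coding starts. The 1 Mb to the right held 7 control and 8 cadmium peaks, with 7.39 and 6.99 kb covered and 1 protein-coding start.

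**Figure D3:**
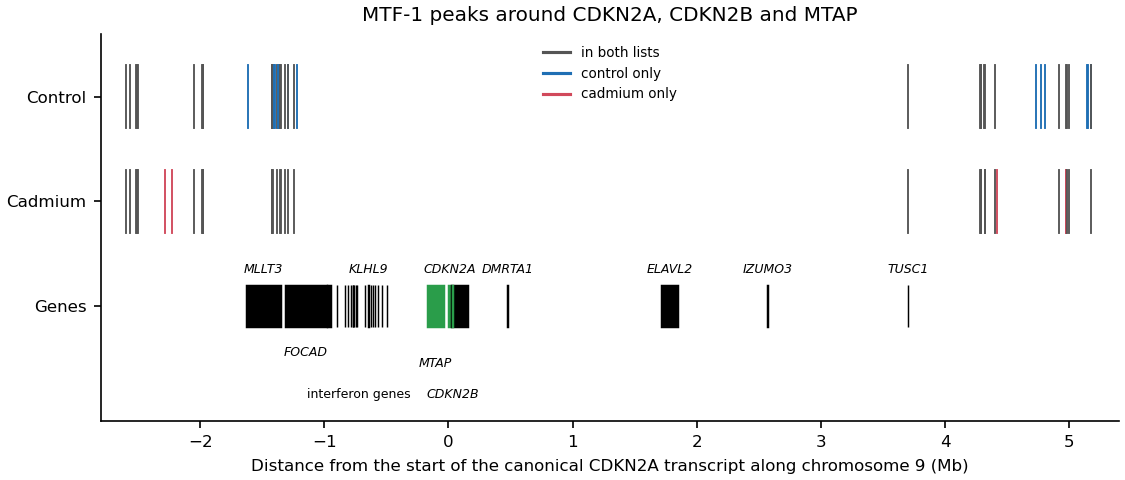
Peaks of the control and cadmium lists (vertical ticks at peak centres, coloured by class) and genes (boxes; CDKN2A, CDKN2B and MTAP in green) along chromosome 9, by distance in Mb from the start of the canonical CDKN2A transcript. Neither row has a tick between 1.22 Mb to the left and 3.70 Mb to the right.

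The stretch held 24 whole protein-coding genes, and none had a peak of either list. Of these, 16 were genes of the type I interferon cluster and 8 were others: HACD4, an enzyme of very long chain fatty acid synthesis, KLHL9, a ubiquitin ligase adaptor, MTAP, CDKN2A, CDKN2B, DMRTA1, ELAVL2, a neuronal RNA-binding protein, and IZUMO3. The stretch also took in CDKN2B-AS1, the noncoding antisense gene known as ANRIL. The interferon genes were IFNB1, IFNE, IFNW1 and the IFNA family. The interferon genes are silent in most resting cells. Of the 21 genes with a RefSeq promoter, 5 had a CpG-rich one at 1 start or more, namely CDKN2A, CDKN2B, ELAVL2, HACD4 (59.6% GC, ratio 0.824) and KLHL9 (62.8%, ratio 0.748).

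By length alone the stretch was number 9 of 77031 spaces between neighbouring peaks, whose median was 10801 bp. Of the 8 longer ones, 4 held unknown bases of the assembly, such as centromeric gaps, and 4 did not: 6.28 Mb and 5.47 Mb on the X chromosome, 5.45 Mb elsewhere on chromosome 9 and 5.06 Mb on chromosome 13. By gene content it ranked differently. With unknown bases allowed, its 24 protein-coding genes were second among 159 stretches of at least 1 Mb, after a 2.36-Mb stretch on chromosome 11 with 49 genes, 46 of them olfactory receptor genes, and 4.23% unknown bases. The next, a 2.99-Mb stretch of chromosome 11 with 8.61% unknown bases, had 14 genes, 10 of them olfactory receptor genes. Among the 129 stretches with no unknown base, 24 was the highest number, followed by 10, with a median of 1. These ranks rested partly on the interferon cluster. Without those genes, a choice made after the values were seen, it had 8 among these 129, the same as 2 other stretches and fewer than the 10 of a stretch of 1.397 Mb on chromosome 19. It had 5 genes with a CpG-rich promoter, as did the 5.06-Mb stretch on chromosome 13, and 93 of the 129 had 0. Loss of the DNA and lack of MTF-1 on DNA that is present cannot be told apart in a list of peaks, here or in the chromosome 13 stretch.

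**Figure D4:**
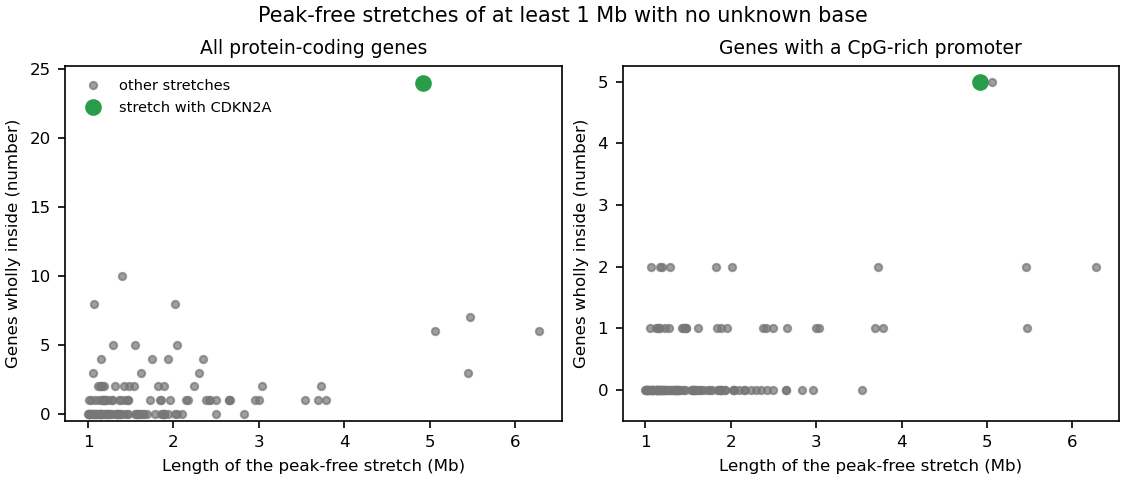
Length in Mb of each of 129 peak-free stretches of at least 1 Mb with no unknown base, against the number of protein-coding genes wholly inside (left) and of those with a CpG-rich promoter (right). The stretch with CDKN2A (green) holds 24 genes, above the 10 of the next of these 129 (a stretch with 49 genes and 1 with 14, both with unknown bases, are not plotted), and 5 with a CpG-rich promoter, which a stretch on chromosome 13 equals.

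The partners of the members in their pathways give a scale for these values, and the partners named here were picked after their values were seen. Of 54 listed partner genes, 53 had a peak of both lists at the start, against 70.2% of all protein-coding genes, and MYCN, a MYC paralogue of neural tissue, had no peak within 50 kb. Their windows held 471 control peaks, of which 100 (21.2%) were lost, against 27.9% of all control peaks, and 437 cadmium peaks, of which 42 (9.61%) were gained, against 15.1% of all cadmium peaks. The same 3 background shares apply to each list that follows. In the RAS-MAPK list of BRAF and NF1, 14 of 14 genes had a start peak in both lists, and 12 of 96 control peaks (12.5%) were lost and 13 of 99 cadmium peaks (13.1%) gained. DUSP6, a phosphatase that restrains ERK, had 5 control and 5 cadmium peaks, with 0 lost and 0 gained. Its covered bases fell from 21.995 to 15.995 kb, a ratio of 0.727, and the ratios of the list ran from 0.526 to 1.62.

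In the RB pathway list, to which CCND1, CDKN2A and CDKN2B are tied, 14 of 14 genes had a start peak in both lists, 26 of 129 control peaks (20.2%) were lost, below the 27.9% of all control peaks, and 10 of 118 cadmium peaks (8.47%) were gained, below the 15.1% of all cadmium peaks. The list holds 4 other genes of inhibitors of cyclin-dependent kinases, CDKN1A, CDKN1B, CDKN2C and CDKN2D, and each had a start peak in both lists. CDKN2C and CDKN2D, the INK4 relatives of CDKN2A and CDKN2B, had 3 and 3 and 11 and 11 peaks in control and cadmium, and CDKN1A (p21) had 15 and 16. CCND3, a sister of CCND1, had 21 control and 15 cadmium peaks with 7 lost, and its covered bases fell from 84.337 to 38.743 kb (ratio 0.459). CCND2 had 3 and 3 peaks and a ratio of 0.510. RB1 had 2 control and 6 cadmium peaks, with 4 gained and a ratio of 1.61.

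In the Hippo list downstream of NF2, 11 of 11 genes had a start peak in both lists, 37 of 132 control peaks (28.0%) were lost, close to the 27.9% of all control peaks, and 9 of 109 cadmium peaks (8.26%) were gained, against 15.1% of all. The median covered-base ratio of the list was 0.645, with a range of 0.325 to 1.20, and 7 of the 11 genes were below the median of 0.748 over all gene windows. The RB list had a lower median of 0.613, with 10 of 14 genes below 0.748. The MYC network had 0.661 with 6 of 8 below, methionine salvage 0.765 with 3 of 6, and RAS-MAPK 0.837 with 6 of 14. YAP1, the coactivator that this pathway restrains, had 18 control and 11 cadmium peaks with 8 lost and 0 gained, and covered bases fell from 41.182 to 13.389 kb (ratio 0.325). TEAD1, its DNA-binding partner, had 25 and 20 peaks with 8 lost and a ratio of 0.389. SAV1, a scaffold of the Hippo kinases, lay between them at 0.360, and these were the 3 lowest ratios of the list. At its upper end, MOB1A, an activator of the LATS kinases, had a ratio of 1.20 with 0 lost and 2 gained peaks, the kinase genes LATS1 and LATS2 had ratios of 0.875 and 0.778, and the YAP1 paralogue WWTR1 had 0.840.

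In the MYC network, 8 of 9 genes had a start peak in both lists, with 16 of 66 control peaks (24.2%) lost, against 27.9% of all, and 6 of 67 cadmium peaks (8.96%) gained, against 15.1% of all. MAX, the partner of MYC, had 6 and 8 peaks with 0 lost and 2 gained. In methionine salvage, the pathway of MTAP, 6 of 6 listed genes had a start peak in both lists, with 9 of 48 (18.8%) lost and 4 of 44 (9.09%) gained. PRMT5, the arginine methyltransferase whose activity falls when MTAP is missing, had 14 and 10 peaks with 4 lost, and MAT2A had 11 and 12 with 1 gained.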

How the data were processed

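Peak positions were used as deposited. Per the labels and the study's methods, the authors used Bowtie2 for alignment to hg38 and SAMtools 1.8 to combine the 2 replicates per condition, and called peaks with Epic2, a reimplementation of SICER (the labels name SICER 0.0.50). Peak starts fall on bins of 200 bp, and each width as recorded is 1 bp less than a multiple of 200 bp. Peaks of 999 bp therefore fall below the alternative minimum of 1000 bp. A control library for the calling is not given in the sources used here. The deposited columns are a chromosome, a start and an end in bp and a constant column that was not used. Each deposited start was read as the base before the peak and is printed 1 higher, as a 1-based position. Values were handled with pandas 2.3.3, sequences were read with pysam 0.24.0, and genes and transcript starts came from GENCODE 44. A peak at a start had a base within 1 kb of it. Lost, gained and shared peaks were set by an overlap of at least 1 base. Distances were taken from peak centres. The joins were tested on simulated data. All members and all of their peaks were eligible to be named, with those of a second gene named only at a member's peak, in the stretch or as a pathway partner. The members and gene lists were chosen with earlier results of these data known. No test was run, since each condition is 1 list. Alternatives were the window, the minimum peak width, the overlap, the joining of near peaks and the distance to a start. A few items are not reported here.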

Additional observations from a re-analysis of the deposited data

How the results depend on the processing

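The count of lost peaks at the members was 6 of 36 control peaks, and it was 11 of 67 with windows of 100 kb. It was 10 of 36 when a peak counted as shared only with 50% of its bases in peaks of the other condition. The count of gained peaks was 6 of 37 cadmium peaks, and it was 1 of 19 with windows of 10 kb, since 5 of the 6 lay further out. Other window sizes, minimum widths of peaks and joining of peaks under 1 kb apart left the lost count between 5 and 8 and the gained count between 6 and 8. The totals changed too, and among peaks of at least 1000 bp 8 of 27 control peaks were lost. The lost share at the members was therefore higher with these wide peaks and with the 50% rule than in the main setting. The share over all peaks is given for the main setting only. The 5 members with a start peak were 5 in number under every distance and width tried, and the peak-free stretch was 4921001 bp, or 4944201 bp in the cadmium list alone. The ratio of covered bases was 0.822 to 0.957 over the alternatives, the highest value being the one without CCND1, which was added after the data were seen. The rank of the stretch by genes was 1 without and 2 with stretches that hold unknown bases, the latter added after the data were seen. Leaving out replicates could not be done, and no paired analysis was possible because the authors merged the replicates of each condition before peak calling. Copy number, mappability and read depth were not measured in these lists, and absence of a peak is not a measure of absent binding at any stated depth.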
